A study of Homo sapiens with 25 samples.

Results

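The regions described here carry MLL4 in every library that measured it and H3K4me3 in both libraries that measured that mark. The 4 deposited MLL4 peak lists were merged into 35854 regions on chromosomes 1 to 22 and X, and a region was taken when each of the 4 lists had a peak in it and both H3K4me3 lists overlapped it by at least 1 bp. The rule found 1709 regions, which is 4.77% of all MLL4 regions and 78.3% of the 2183 regions that all 4 MLL4 lists share. They are called MLL4/H3K4me3 regions below. The regions were thus chosen by their MLL4 and H3K4me3 peaks, whose values are given as description, while H3K4me1, H3K27ac and the FOXD2 tags were not used by the rule.

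All libraries come from HCT116, an established human colorectal carcinoma line, so the results are those of a single line. Control cells received the empty pSin lentiviral vector and FOXD2 cells a pSin vector that expresses the forkhead factor FOXD2, and both grew in high-glucose DMEM with 10% FBS and 5 μg/ml puromycin, so lentiviral delivery and drug selection are common to both groups. Each group has 2 libraries for H3K4me1, 2 for H3K27ac and 2 for MLL4, but 1 for H3K4me3. A further 4 libraries, 2 with a 6xHis and 2 with a FLAG antibody, come from cells given a plasmid for FOXD2 with a 3xflag and a 6xhis tag, so they show an overexpressed tagged protein and have no untagged control list here. The labels do not say that replicates are separate cultures, so the spread between them may be technical. Histone marks were read from MNase-digested native chromatin, MLL4 and the tags from crosslinked, sonicated chromatin.

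MLL4, also named KMT2D, is a histone methyltransferase that places a single methyl group on lysine 4 of histone H3 (H3K4me1), chiefly at enhancers, the distal elements that raise transcription from a promoter. Trimethylation of the same lysine (H3K4me3) is laid down mainly by the SETD1 and MLL1/MLL2 complexes and marks active promoters, above all those rich in CpG. Acetylation of lysine 27 (H3K27ac), placed by p300 and CBP, marks promoters and enhancers in use. A region with MLL4 and H3K4me3 is thus commonly read as a promoter, which the position of the regions allows to be checked.

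Most of the MLL4/H3K4me3 regions were not at an annotated gene start. A start lay inside the region in 382 (22.4%) and within 1 kb of its edge in a further 126, so that 508 regions, 29.7% (95% Wilson interval 27.6 to 31.9), were near a start. A further 276 (16.1%) lay 1 to 5 kb away and 925 (54.1%) more than 5 kb away. Of those 925, 490 (53%) were inside the span of a protein-coding gene. H3K4me3 regions of both lists with no MLL4 peak, 7475 in number, were near a start in 62.6% of cases, and the 474 regions of all 4 MLL4 lists without H3K4me3 in both lists in 4.85%. Over all 35854 MLL4 regions the share was 29.1%, within the interval of the MLL4/H3K4me3 regions. Starts were taken from RefSeq protein-coding and lncRNA promoters, with both ends of a gene where no start was listed, so a start missing from the table would count its region as distant. A single library decides much of this share: without replicate 2 of FOXD2 MLL4 the rule found 4245 regions, of which 45.7% were near a start.

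**Figure D1:**
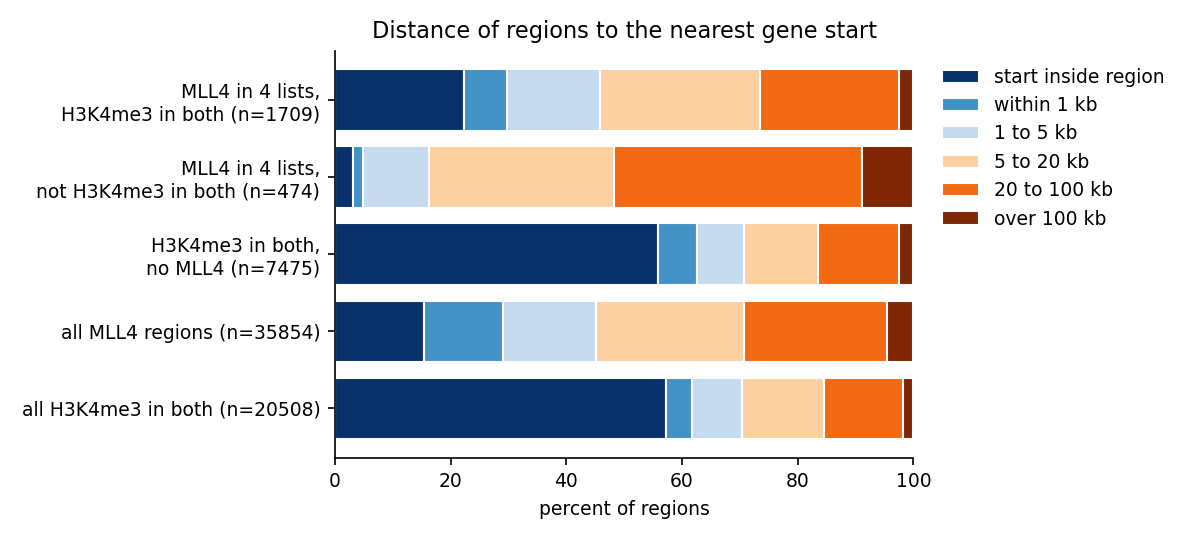
Horizontal bars show, for 5 classes of regions, the percent of regions (x axis) by distance to the nearest annotated start, with the number of regions in brackets. The MLL4/H3K4me3 regions have 29.7% at most 1 kb from a start, against 62.6% of H3K4me3 regions without MLL4 and 4.85% of the regions of all 4 MLL4 lists that lack H3K4me3 in both lists.

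For the near-start regions, promoter sequences show what lies around the nearby start, which need not be inside the region. The start was inside a region for 352 of the 499 windows searched below. The windows below run from 250 bases before to 50 bases after a RefSeq start (GRCh38.p14), 5′ to 3′ on the gene's strand. The first 6 belong to the regions of highest MLL4 rank that have a listed start within 1 kb and a window to print. Regions are ranked in each MLL4 list by their highest −log10 q, the caller's significance, and the ranks of the 4 lists are summed. Capitals mark each SP/KLF box, GGGCGG on either strand, the letters found in most of these promoters. CDS1 codes for a CDP-diacylglycerol synthase, TET3 for a 5-methylcytosine dioxygenase, EFNA1 for the ephrin-A1 ligand, GPX4 for the peroxidase that reduces lipid peroxides and MC1R for a melanocortin receptor.
CDS1: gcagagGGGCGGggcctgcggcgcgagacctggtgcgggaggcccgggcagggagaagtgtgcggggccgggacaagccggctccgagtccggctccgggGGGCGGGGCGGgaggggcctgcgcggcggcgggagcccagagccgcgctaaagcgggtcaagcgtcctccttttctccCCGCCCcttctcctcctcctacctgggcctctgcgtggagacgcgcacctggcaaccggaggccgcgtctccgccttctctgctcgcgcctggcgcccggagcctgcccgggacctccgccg
TET3: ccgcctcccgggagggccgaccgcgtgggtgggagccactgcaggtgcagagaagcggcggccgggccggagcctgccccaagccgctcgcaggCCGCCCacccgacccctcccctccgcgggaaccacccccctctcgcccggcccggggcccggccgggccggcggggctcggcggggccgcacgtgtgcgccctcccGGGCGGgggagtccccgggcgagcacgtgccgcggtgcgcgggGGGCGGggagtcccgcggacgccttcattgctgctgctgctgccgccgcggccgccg
EFNA1: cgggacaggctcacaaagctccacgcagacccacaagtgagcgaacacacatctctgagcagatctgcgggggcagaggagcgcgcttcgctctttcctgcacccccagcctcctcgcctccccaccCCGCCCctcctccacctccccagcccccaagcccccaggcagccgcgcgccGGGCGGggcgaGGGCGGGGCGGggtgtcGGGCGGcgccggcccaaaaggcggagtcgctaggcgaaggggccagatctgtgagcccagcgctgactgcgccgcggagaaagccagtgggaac
YJU2B: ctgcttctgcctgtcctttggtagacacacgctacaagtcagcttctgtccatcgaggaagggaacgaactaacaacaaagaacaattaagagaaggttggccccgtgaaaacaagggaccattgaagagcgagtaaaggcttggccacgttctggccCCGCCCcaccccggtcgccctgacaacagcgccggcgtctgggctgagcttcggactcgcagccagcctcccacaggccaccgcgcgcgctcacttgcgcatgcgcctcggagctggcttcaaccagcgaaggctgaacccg
GPX4: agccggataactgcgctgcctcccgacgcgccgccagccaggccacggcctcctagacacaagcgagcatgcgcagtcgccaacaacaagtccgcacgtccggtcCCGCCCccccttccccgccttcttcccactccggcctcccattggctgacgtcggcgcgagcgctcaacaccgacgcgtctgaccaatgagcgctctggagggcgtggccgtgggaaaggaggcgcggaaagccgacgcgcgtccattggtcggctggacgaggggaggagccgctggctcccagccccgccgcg
MC1R: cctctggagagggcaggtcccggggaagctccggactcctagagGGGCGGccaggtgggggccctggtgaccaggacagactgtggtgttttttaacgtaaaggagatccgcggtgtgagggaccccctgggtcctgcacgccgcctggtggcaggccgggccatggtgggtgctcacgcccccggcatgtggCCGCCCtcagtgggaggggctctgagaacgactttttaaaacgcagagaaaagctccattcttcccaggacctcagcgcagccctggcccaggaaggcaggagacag

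Their windows differed in how close MLL4 came to the start. At CDS1 (window chr4:84582877-84583176, + strand) the median MLL4 summit of the 4 lists lay 533 bp before the start, and at YJU2B (chr19:13731502-13731801, + strand) 240 bp before it. TET3 (chr2:73984660-73984959, + strand), GPX4 (chr19:1103744-1104043, + strand) and MC1R (chr16:89918612-89918911, + strand) had it 1181, 1360 and 952 bp upstream. EFNA1 (chr1:155127626-155127925, + strand) differed, with the summit 2204 bp past the start. The TET3 and EFNA1 windows lie wholly outside their MLL4/H3K4me3 region, whose edge is 366 and 978 bp from the start. The number of SP/KLF boxes per window ran from 1 at YJU2B and GPX4 to 5 at EFNA1, and GC content from 60.3% at YJU2B to 82.7% at TET3.

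The next 4 windows are shown because AP-1, the letters TGANTCA bound by FOS and JUN dimers, was the searched motif whose share stood furthest above that of H3K4me3 promoters without MLL4. They are the highest ranked further regions that hold a start and have the motif in its window, and capitals mark it. S100A2 codes for a calcium-binding protein of the S100 family, MGAT5B for a glycosyltransferase and UPP1 for uridine phosphorylase.
S100A2: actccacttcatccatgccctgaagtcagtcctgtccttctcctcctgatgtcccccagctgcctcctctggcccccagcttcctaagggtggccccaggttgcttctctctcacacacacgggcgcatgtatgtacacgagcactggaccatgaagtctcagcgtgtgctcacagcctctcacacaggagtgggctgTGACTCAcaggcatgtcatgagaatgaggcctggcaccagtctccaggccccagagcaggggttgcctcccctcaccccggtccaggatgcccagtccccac
MGAT5B: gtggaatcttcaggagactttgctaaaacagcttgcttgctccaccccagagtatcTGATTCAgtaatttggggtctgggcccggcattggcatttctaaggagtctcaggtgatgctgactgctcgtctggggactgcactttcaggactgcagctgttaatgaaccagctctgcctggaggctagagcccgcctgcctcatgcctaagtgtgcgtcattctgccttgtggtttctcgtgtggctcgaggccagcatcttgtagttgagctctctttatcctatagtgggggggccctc
DYNLT4: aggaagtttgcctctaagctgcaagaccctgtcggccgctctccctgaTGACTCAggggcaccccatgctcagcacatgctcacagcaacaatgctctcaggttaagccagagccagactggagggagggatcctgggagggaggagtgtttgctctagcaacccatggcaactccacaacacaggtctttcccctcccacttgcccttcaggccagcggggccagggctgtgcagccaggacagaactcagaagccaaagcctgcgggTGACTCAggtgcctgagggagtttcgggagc
UPP1: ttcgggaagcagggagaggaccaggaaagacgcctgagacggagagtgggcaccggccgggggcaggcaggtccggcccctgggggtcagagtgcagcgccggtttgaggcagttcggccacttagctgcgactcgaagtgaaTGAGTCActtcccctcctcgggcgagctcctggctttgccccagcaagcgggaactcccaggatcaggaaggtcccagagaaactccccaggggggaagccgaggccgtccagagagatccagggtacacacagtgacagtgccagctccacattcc

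S100A2 (chr1:153565795-153566094, - strand) has its AP-1 match 52 bases before the start, MGAT5B (chr17:76872397-76872696, + strand) 194 bases before it and UPP1 (chr7:48088454-48088753, + strand) 107 bases before it. DYNLT4 (chr1:44807302-44807601, - strand) has 2 matches. None of these 4 windows holds an SP/KLF box, and their CpG counts, between 5 and 16, lie under the median of 25 over the windows of the near-start regions.

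A protein-coding start within 1 kb gave 499 windows from 376 genes, several windows of a gene being able to overlap. AP-1 letters were in 55 of the 499 (11%, Wilson interval 8.57 to 14.1), against 3.66% (3.17 to 4.23) of 4779 windows at H3K4me3 regions without MLL4, 4.25% of the 13486 windows at all shared H3K4me3 regions and 6.15% of all 22132 protein-coding windows. ETS letters (CCGGAAG) went the other way, at 12.8% (10.2 to 16.0) against 20.0% (18.9 to 21.2) at H3K4me3 regions without MLL4, the same as the 12.8% of all promoters. At all shared H3K4me3 regions ETS letters were in 18.6%. SP/KLF letters were in 75.2% of the windows (71.2 to 78.7), against 68.7% at H3K4me3 regions without MLL4 and 56.3% of all promoters, but 73.4% at all shared H3K4me3 regions lies within the interval. TATAAA was in 4.41%, against 5.63% and 9.46%. The forkhead letters GTAAACA were in 2.2%, against 2.09% and 2.85%, intervals that overlap. NFY (CCAAT), NRF1, YY1, CRE (TGACGTCA) and the E-box (CACGTG) had intervals that overlapped those of H3K4me3 regions without MLL4. NFY letters, in 40.1% (35.9 to 44.4), stood above the 34.8% (34.0 to 35.6) of all shared H3K4me3 regions. Both strands were searched, and the intervals cover counting error only. Median GC content was 67.0%, close to the 66.3% of all shared H3K4me3 regions, against 64.3% at H3K4me3 regions without MLL4 and 62.3% over all promoters. Median CpG counts were 25 for the near-start regions, 26 at H3K4me3 regions without MLL4, 27 at all shared H3K4me3 regions and 21 over all promoters.

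**Figure D2:**
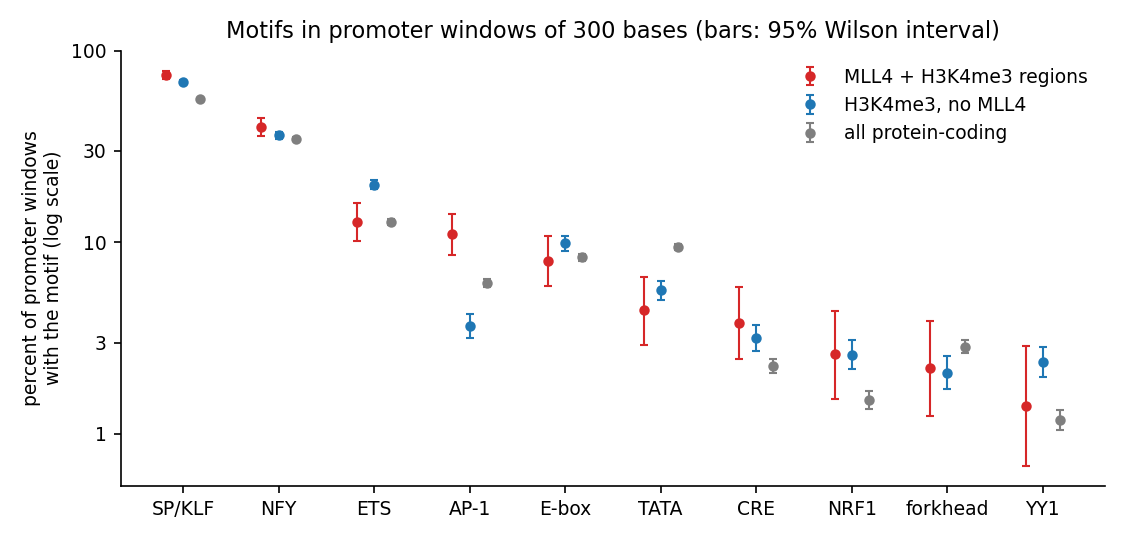
Points give the percent of 300-base promoter windows that hold each of 10 motifs (log axis), with 95% Wilson intervals, for windows at MLL4/H3K4me3 regions, at H3K4me3 regions without MLL4 and for all protein-coding promoters. AP-1 stands at 11%, 3.66% and 6.15%, and ETS at 12.8%, 20.0% and 12.8%.

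The highest ranked of these regions lay mostly away from a start. So did the regions as a whole, of which 29.7% were near a start. The region of lowest rank sum lies inside MYO9B, an unconventional myosin (chr19:17134906-17136009), 59129 bp from the nearest start. Its MLL4 fold enrichment, the authors' own value for the peak over background, was 34.9 and 78.9 in the 2 control lists and 17.6 and 42.0 in the 2 FOXD2 lists. It had rank 1 in 3 lists and rank 2 in FOXD2 replicate 1. Its H3K4me3 fold was 28.8 in the control and 39.1 in the FOXD2 list, under each list's median of 44.8 and 50.7. The next region lies 11.4 kb from CACNG4, a calcium channel subunit (chr17:66951132-66953341), with MLL4 folds of 33.8, 31.2, 19.6 and 11.2 in the same order of lists. Its H3K4me3 folds were 12.5 and 9.96. Of the 12 regions of lowest rank sum, 3 were near a start, those assigned to S100A11, GNG7 and CDS1, and only CDS1 had the start of the gene in the region. At CDS1 (chr4:84582107-84583253) the H3K4me3 fold was 125 in the control and 109 in the FOXD2 list, far above that of MYO9B and CACNG4.

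Within each MLL4 list the regions stood high in 3 lists and nearer the middle in the remaining one. Their median fold was 8.07 and 9.67 in the control lists and 6.77 and 6.34 in the FOXD2 lists, at percentiles 87.3, 85.7, 90.3 and 59.8 of the own list. FOXD2 replicate 2, the list at percentile 59.8, is also the shortest, with 4676 peaks against 13571 to 22493 in the other 3. Summits of the 4 lists lay a median of 186 bp apart at their extremes. Region width had a median of 1013 bp and ran from 378 to 4533 bp, the widest being at the HCFC1R1 start, followed by TRIM8, AZIN1, SLC16A3, GSE1 and SEPTIN9.

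H3K4me3 at these regions was strong near a start and weak away from one. Near a start the median H3K4me3 fold was 97.5 in the control and 87.9 in the FOXD2 list, at percentiles 70.1 and 67.3, and the peaks were a median of 2331.5 and 2262.5 bp wide. Over 5 kb from a start it was 12.4 and 10.6, at percentiles 31 and 25, with peaks of 950 and 808 bp. H3K4me3 regions without MLL4 showed the same order, with percentiles of 65.2 and 62.9 near a start and 35.8 and 31.7 over 5 kb away. The regions 1 to 5 kb away resembled the distant ones, at 37.1 and 30.9.

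Regions just inside and just outside the rule show how it was met. The smallest H3K4me3 overlaps were 1 bp at a region near TLR6 and 13 bp at one assigned to EPCAM. The weakest regions by MLL4 rank lay at TMEM255B, PRDM1 and LRP1B, with folds between 3.42 and 6.43. Outside, 2968 regions had both H3K4me3 lists and 3 of the 4 MLL4 lists, and in 2545 of them (85.7%) the missing list was FOXD2 replicate 2. The strongest of these lay in or near CD9, LOC124900275, SOX9 and VRK3. The CD9 region (chr12:6215452-6216923) had folds of 17.4 and 20.5 in the control lists and 11.3 in FOXD2 replicate 1.

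H3K4me1 was present at nearly all the regions, but its shape depended on the distance to a start. The 4 H3K4me1 lists held 98.8% and 97.8% of the regions in the control and 98.7% and 97.8% in the FOXD2 libraries, and 1659 regions (97.1%) were in all 4. Over 5 kb from a start, H3K4me1 peaks covered 98.9% and 97.8% of the region length in the control and 98.6% and 97.0% in the FOXD2 lists. Near a start they covered 78.2% and 67.9%, and 74.3% and 63.8%. Covered length was thus 27 percentage points (± 5.61, SD of 4 libraries) higher at the distant regions, in 4 of 4 libraries (exact paired permutation test, two-sided, p = 0.13, the smallest that 4 libraries allow). Around the 348 regions with a listed protein-coding start within 1 kb, a mean of 35.7% of starts lay inside an H3K4me1 peak, against 86.6% of points 900 bp upstream. MLL4 had its highest mean coverage 300 bp upstream of the start (62.1%), and its summit lay at a median of -248.5 bp relative to the start, and past it in 27.6% of these regions.

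**Figure D3:**
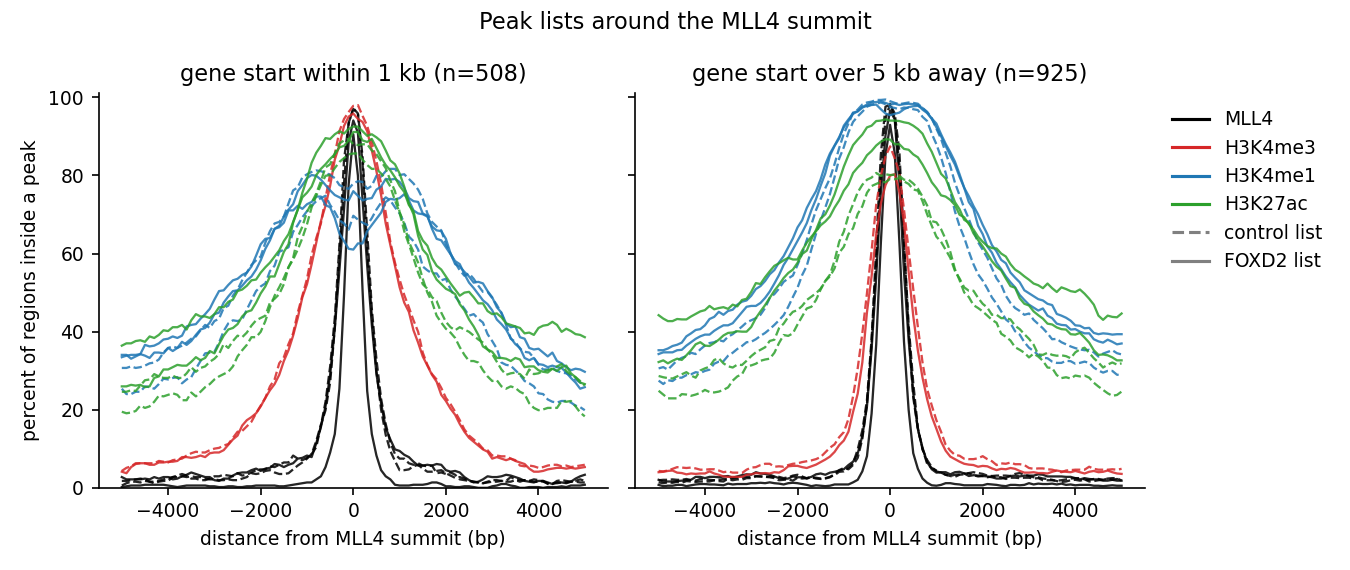
Lines give the percent of regions whose base at a given distance (bp, x axis) from the median MLL4 summit lies in a peak, 1 line per list, dashed for control and solid for FOXD2 lists, for the 508 regions near a start and the 925 more than 5 kb away. At the summit, H3K4me1 lists cover a mean of 97.5% of the distant and 71.2% of the near-start regions, where H3K4me3 is wider.

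At the summit itself, the mean H3K4me1 coverage was 97.5% for the distant and 71.2% for the near-start regions. In 12 regions no list had H3K4me1, and 11 of these were near a start, among them DDX5, an RNA helicase, HNRNPD, an RNA-binding protein of AU-rich messages, and USP9X, a deubiquitinase. The remaining one, in NR2F2, an orphan nuclear receptor, lay 1471 bp away. The DDX5 region (chr17:64506199-64506991) had H3K4me3 folds of 98.8 and 113, and MLL4 folds of 10.2 and 13.8 in control and 7.80 and 5.78 in FOXD2 lists.

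Compared with other regions, H3K4me1 at the MLL4/H3K4me3 regions differed from that at H3K4me3 regions without MLL4 more in extent than in presence. The share with an H3K4me1 peak was 3.19 points higher (± 1.20, 4 libraries). The covered length was 27.6 points higher (± 4.28) and the median fold percentile 22.1 points higher (± 4.28). Each of these differences was positive in 4 of 4 libraries (exact paired p = 0.13). The intervals are unlike, being merged MLL4 peaks of median 1013 bp against merged H3K4me3 peaks of median 1357 bp. Near a start the medians were 1094.5 and 1773.5 bp. With both classes limited to regions of 300 to 2000 bp, the difference in share was 4.46 points for H3K4me1. In that setting it was 25.9 points for H3K27ac and 10.5 for the tags. Widths were not matched within these limits. The part of interval width and position in the differences from H3K4me3 regions without MLL4, here and below, was not tested. Without replicate 2 of FOXD2 MLL4 the difference in share was -0.21 points. Of all shared H3K4me3 regions, the H3K4me1 lists held 98.8% and 97.1% in control and 98.3% and 97.8% in FOXD2 libraries. Mean covered length over that class was 67.5% in control and 67.7% in FOXD2 libraries. Among near-start regions alone the share was 0.84 points lower than at near-start H3K4me3 regions without MLL4, and the covered length 14.5 points higher. The 474 MLL4 regions without H3K4me3 in both lists had a median width of 760 bp, and 83.8% lay over 5 kb from a start. The part of width and position in the differences from them, here and below, was not tested. Against these 474 regions, covered length was 9.66 points lower, and the distant regions alone were 0.75 points lower. The median fold percentile went the other way, 2.32 points higher for all the regions and 3.13 points higher for the distant ones, each in 4 of 4 libraries. In all, 54 such differences between region classes were tested, and the smallest Benjamini-Hochberg adjusted p was 0.144.

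Between FOXD2 and control cells the share and covered length of H3K4me1 differed by less than the spread of the lists, while its fold rank did not overlap between the groups. The FOXD2 minus control difference was -0.03 points for the share (98.3% ± 0.62 against 98.3% ± 0.74, n = 2 each, exact p = 1) and -1.72 points for covered length (88.3% ± 3.16 against 90.01% ± 3.02, exact p = 0.667). The median percentile of the fold within its list was 95.4 ± 0.06 in control and 96.7 ± 0.09 in FOXD2 libraries. This was 1.34 points higher without overlap (exact permutation p = 0.33). It was also higher without overlap near a start (2.23 points), at 1 to 5 kb (1.23) and over 5 kb away (1.00). Over all MLL4 regions it was 1.99 points higher and at MLL4 regions without H3K4me3 in both lists 1.52, also without overlap. Over all shared H3K4me3 regions it was 3.69 points higher, with overlap. The H3K4me1 lists were longer in FOXD2 libraries, with 114893 and 129887 peaks against 101204 and 95756 in control. The part of list length in these percentiles was not tested. With 2 libraries a group the exact permutation test cannot go below 0.33, so this test cannot pass 0.05 for any group difference, and over 60 such comparisons the smallest adjusted p was 0.741. PUS10 was the 1 region (0.0585%) with H3K4me1 in both FOXD2 lists and neither control list. The share called so was 1.31% of all MLL4 regions but 0.0731% of all shared H3K4me3 regions, close to that of the MLL4/H3K4me3 regions. COPB2, ETV6 and PRRC2A were the 3 (0.176%) with H3K4me1 in both control lists only. This compares with 1.15% of all MLL4 regions and 0.224% of all shared H3K4me3 regions. Covered length was higher in both FOXD2 lists than in both control lists in 20 regions (1.17%). It was lower in both in 82 (4.80%). Over all MLL4 regions these shares were 3.63% and 4.65%. Of all 20508 shared H3K4me3 regions, 1249 (6.09%) had it higher and 1538 lower.

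H3K27ac was nearly as widespread and was higher in the FOXD2 lists. The share of regions with an H3K27ac peak was 94.8% and 94.9% in the control and 98.1% and 98.0% in the FOXD2 libraries, a difference of 3.22 points with no overlap between the groups (exact p = 0.33, the smallest possible). Peaks covered 84.9% and 86.2% of the region length in the control and 94.1% and 91.5% in the FOXD2 libraries, a difference of 7.27 points, again without overlap (exact p = 0.33). Over 5 kb from a start covered length was 83.5% ± 0.71 in control and 93.1% ± 2.76 in FOXD2 libraries (SD, n = 2 each, difference 9.67 points). Near a start it was 88.6% ± 1.87 and 92.2% ± 1.01 (3.64 points). The same direction was found in other classes. The share was 5.55 points higher over all MLL4 regions and 2.51 over all shared H3K4me3 regions. At H3K4me3 regions without MLL4 it was 3.24 points higher, and in these classes the groups overlapped. At MLL4 regions without H3K4me3 in both lists it was 8.76 points higher, without overlap. Covered length over all shared H3K4me3 regions was 5.57 points higher, over all MLL4 regions 7.56 and over MLL4 regions without H3K4me3 in both lists 13.3. List length did not separate the groups, with 129995 and 85832 peaks in control and 85122 and 141008 in FOXD2 libraries. The median width of all H3K27ac peaks did, with 653 and 655 bp in control and 779 and 721 bp in FOXD2 libraries, and its part in the covered length was not tested. Bulk chromatin cannot tell more cells with the mark from more of the mark per cell.

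**Figure D4:**
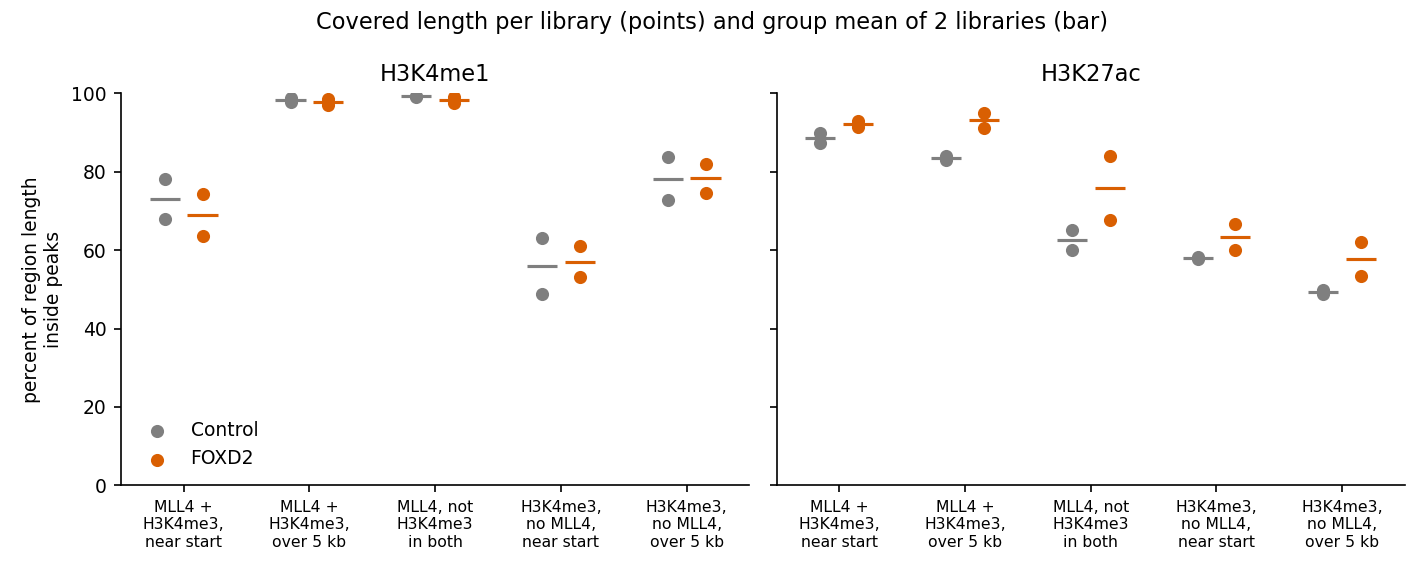
Points show the percent of region length inside H3K4me1 (left) and H3K27ac (right) peaks in each library, and bars the mean of the 2 libraries of a group, for 5 classes of regions. H3K27ac points of the FOXD2 libraries lie above both control points in each class, while H3K4me1 points overlap in all but the class without H3K4me3 in both lists.

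Few regions had H3K27ac in one group only. H3K27ac was in all 4 lists at 1565 regions (91.6%) and in none at 11, among them regions in STAT4, SHANK3 and MGARP and one near KLHL25. It was in both FOXD2 lists and neither control list at 27 regions (1.58%). This compares with 3.72% of all MLL4 regions and 1.63% of all shared H3K4me3 regions. It was in both control lists only at 0, against 0.985% and 0.512%. Of the 27, 22 lay more than 5 kb from a start and 2 near one, against 54.1% and 29.7% of all the regions. Control H3K27ac lists held a mean of 93.1% of the distant and 97.2% of the near-start regions. A larger part of the distant regions was thus open to this call. The highest ranked of the 27 was near CFAP161 (chr15:81091883-81092799), where FOXD2 peaks covered 854 and 200 of 917 bp and control peaks 0. The others named by rank lay near ASAP1 and in NPAS1 and PIK3C2B. SMAD7, the inhibitor of TGF-beta signalling, was among the near-start ones (chr18:48942173-48943159), with H3K27ac over 987 and 643 of 987 bp in the FOXD2 lists and 0 in both control lists. Its H3K4me3 folds were low, 5.28 and 8.66.

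Covered length was higher in both FOXD2 lists at 290 regions (17.0%), against 11.7% of all MLL4 regions and 21.7% of all shared H3K4me3 regions. It was lower in both at 37 (2.17%), against 3.52% and 6.76%. Among the 290 was YAP1, where control peaks covered 150 and 692 and FOXD2 peaks 979 and 979 of 979 bp, and the EPCAM region, with 99 and 475 against 1054 and 1054 of 1054 bp. ERBB3 had 923 and 1004 against 1385 and 1385 of 1468 bp. CLDN7 went the other way by a narrow margin, 1451 and 1467 against 1426 and 1391 of 1467 bp.

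H3K27ac was also more frequent than in both comparison classes, in each of the 4 libraries. The share with a peak was 20.1 points higher (± 3.88, 4 of 4 libraries, exact paired p = 0.13) than at H3K4me3 regions without MLL4 and 12.7 points higher (± 4.83, 4 of 4) than at MLL4 regions without H3K4me3 in both lists. Covered length was 29.8 and 19.9 points higher. All shared H3K4me3 regions, with or without MLL4, were nearer. The H3K27ac lists held 86.8% and 85.4% of them in control and 86.1% and 91.1% in FOXD2 libraries. The gap to H3K4me3 regions without MLL4 was 33.3 points more than 5 kb from a start and 14.0 points near one. The regions more than 5 kb away had H3K27ac slightly less often than the near ones, by 2.38 points in 4 of 4 libraries.

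FOXD2 tag peaks were found at a minority of the regions. The 6xHis lists held 25.9% and 18% of them and the FLAG lists 20.8% and 42.1%, and the FLAG lists thus differed from each other by more than the 6xHis lists did. All 4 lists had a peak at 175 regions (10.2%) and none at 870 (50.9%). The mean share was 7.58 points higher than at H3K4me3 regions without MLL4 (± 5.15) and 14.7 points lower than at MLL4 regions without H3K4me3 in both lists (± 7.24), each in 4 of 4 lists (exact paired p = 0.13). The first of these differences depends on the lists used. It was 1.92 points without replicate 2 of FOXD2 MLL4 (exact p = 0.625) and 4.28 points with equal list lengths (exact p = 0.25), where not all 4 lists had the same sign. Distant and near-start regions did not differ in a common direction in this share, with a difference of 0.82 points (± 4.58; higher in 2 of 4 lists, exact p = 0.75). Tag peaks covered 2.88 points more of the length of distant regions (± 2.77; higher in 4 of 4 lists, exact p = 0.13). A peak in all 4 tag lists was found at 3.54% of all MLL4 regions, whose median width is 416 bp. The share was 8.51% at all shared H3K4me3 regions, of median 1653 bp, and thus closer to the 10.2% above. At MLL4 regions without H3K4me3 in both lists it was 19.8%. The highest ranked regions with all 4 tag lists lay in STMN1, the microtubule-destabilizing stathmin (chr1:25890098-25891127), near GCSH, ARHGAP27 and ZNF706, and in TCF7L2, the TCF that pairs with beta-catenin in Wnt signalling (chr10:113073463-113074314). The STMN1 region had weak H3K4me3, with folds of 8.08 and 5.98, and MLL4 folds of 23.9 and 41.8 in control and 13.4 and 12.3 in FOXD2 lists.

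**Figure D5:**
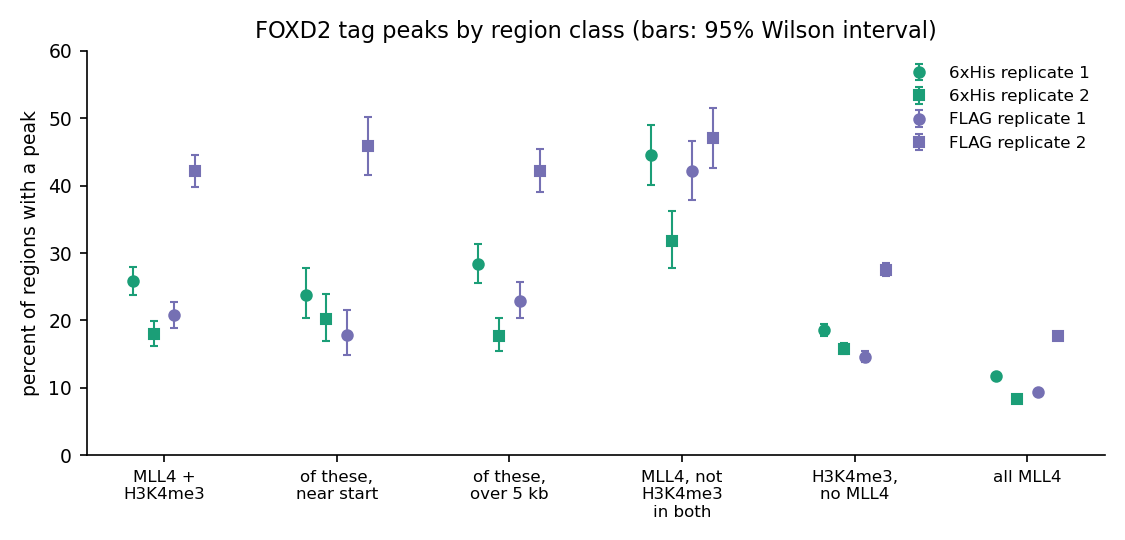
Points give the percent of regions (y axis) with a peak in each of the 4 FOXD2 tag lists, with 95% Wilson intervals that cover counting error only, for 6 classes of regions. The MLL4/H3K4me3 regions lie between 18% and 42.1%, above H3K4me3 regions without MLL4 and below MLL4 regions without H3K4me3 in both lists in each list.

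By gene, 474 of 19974 protein-coding genes (2.37%) had one of the regions at a start or gene end within 1 kb, and 1401 (7.01%) were the gene assigned to at least 1 region within 100 kb. Of genes with H3K4me3 of both lists at the promoter, 3.81% of 12456 had one. Several regions often lay around a single gene. GSE1, a coiled-coil protein found with LSD1 complexes, had 7, GNG7, a G protein gamma subunit, GRK5, a receptor kinase, and SLC39A11, a zinc transporter, had 6 each, and IER2, an immediate-early gene, had 5. Some of these genes are long and hold many MLL4 regions of any kind. The span of GSE1 (507 kb) had 116, that of GRK5 (252 kb) 27, that of GNG7 (191 kb) 22 and that of SLC39A11 (447 kb) 18, while IER2, of 4.5 kb, had 2. At the widest GSE1 region (chr16:85609994-85613625) H3K27ac covered 3076 and 2974 bp in control and 3632 and 3632 bp in FOXD2 lists. A second GSE1 region lay 925 bp from that start, and another (chr16:85645018-85645779) had H3K27ac in the FOXD2 lists alone, over 335 and 401 of 762 bp.

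As a share of list genes with a region at the promoter, genes of the AP-1 and YAP pathway stood highest of the 25 gene lists examined. By any region assigned they tied with the epithelial list at 11 of 20, and among genes with H3K4me3 at the promoter the fibroblast and endothelial list, with 1 of 2 genes, stood higher than their 6 of 18. YAP is the coactivator restrained by the Hippo kinases and acts with TEAD factors, often beside AP-1. Of 20 genes, 6 had a region at the promoter, namely YAP1, AXL, JUNB, FOS, AMOTL2 and EGR1, and 11 had any region assigned, adding TEAD1, FOSL1, JUN, JUND and ATF3. All protein-coding genes stood at 2.37% and 7.01%. With a start required inside the region, 3 of the 20 genes had one. Without replicate 2 of FOXD2 MLL4, 11 of the 20 and 1907 of all 19974 genes had a region at the promoter. At YAP1 (chr11:102111254-102112232) MLL4 folds were 14.4 and 16.5 in control and 10.4 and 8.71 in FOXD2 lists, with all 4 tag lists present. AXL, a receptor tyrosine kinase induced by YAP, had folds of 14.6, 18.9, 9.22 and 7.00 in the same order and 3 tag lists.

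Epithelial genes came next. Of 20 junction and keratin genes 4 had a region at the promoter, KRT8, KRT19 and CLDN7 among them, and 11 had any region assigned, among them CDH1, the epithelial cadherin, EPCAM and CLDN4. KRT8 (chr12:52924891-52927967) was wide and had weak H3K4me3, with folds of 8.18 and 8.46, and H3K27ac over all 3077 bp in each of the 4 lists. In the EGFR and MAPK feedback list 3 of 21 genes had one at the promoter, DUSP6, ERBB3 and ETV4, and 8 had any. In the p53 target list 3 of 20 had one at the promoter, PLK3, SESN1 and DDB2, and 5 had any, CDKN1A included. For KRT19, ERBB3 and ETV4 the region lies at an end of the gene that the table does not identify as the start.

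The remaining lists had 0 or 1 region at a promoter in most cases. With 2.37% over all genes, 0 or 1 gene is near what lists of this size would hold, so these counts are description. Ribosomal protein genes had 1 of 69 at the promoter (RPL13), although 67 of 69 had H3K4me3 there. Splicing factors had 1 of 22 (HNRNPD), chaperones 1 of 20 (HSPB1), translation factors 1 of 20 (EEF2) and H3K4 methyltransferase genes 1 of 17, which was SETD1A, a writer of H3K4me3. Cell cycle genes had 0 of 22, with H3K4me3 at 21, and the Wnt target, Mediator, ubiquitin, HOX, Notch, interferon, mesenchymal and intestinal transcription factor lists also had 0. Several of these had regions further off: 5 of 20 Wnt target genes, LGR5, NOTUM, EPHB2, EPHB3 and CD44, had one assigned within 100 kb. So had 6 of 16 Notch genes, against 7.01% of all protein-coding genes. Assignment was not corrected for gene length or for the number of MLL4 regions in a gene. Of the forkhead list 1 of 23 had one at the promoter, FOXK2.

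The identity of the cells was checked from H3K4me3 of both lists at promoters. It was found at 10 of 15 epithelial markers, 7 of 16 neural markers, 3 of 16 markers of blood cells and 2 of 15 of fibroblasts or endothelium. MLL4/H3K4me3 regions lay at the promoter of 3, 1, 0 and 1 of them. The 18 lists kept between 4676 and 141008 peaks each. Read depth is unknown from these files, and a peak missing from a list may lie just under the caller's threshold.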

How the data were processed

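The series holds 25 ChIP-seq libraries of HCT116 cells, and the lists of 18 were used. The 7 input libraries were not analysed here. Per the submitters' processing notes, build hg38, MACS2 2.2.7.1, bedtools, Picard, cutadapt 3.4 and Bowtie2 2.3.4.1 were used. The authors deposited 1 peak list per library, so no list comes from pooled replicates. In the deposited lists the fold enrichment of a peak is a ratio, and its p-value and q-value are given as −log10, with 2.0 as the lowest −log10 q. These are the authors' values and served only to rank, describe or filter peaks within a list. The library used as background for each list and the read depth are not given in the sources used here, so a depth-based interval cannot be given.

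Peaks on other chromosomes, at most 35 per list, were left out. Lists were merged with a gap of 0 bp, and a list held a region from 1 bp of overlap. Covered length is the percent of region length inside a list's peaks. Starts and promoter windows came from RefSeq tables (GRCh38.p14). Of 19974 protein-coding genes 4162 have no listed start, and both gene ends were used for them. These include the genes of chromosome 8, so its 86 regions are placed by gene ends, and promoter windows of that chromosome are not used here. Groups were compared with exact permutation tests over libraries and region classes with exact paired tests within libraries. The regions, gene lists and tests were chosen with earlier results of these data known. Named regions are those of lowest MLL4 rank sum by −log10 q, the widest, those of the genes with most regions, the highest ranked of each H3K4me1, H3K27ac and tag class, up to 4 per gene list, and those at the edge of the rule. The split by distance, the calls on covered length and the AP-1 windows were chosen after seeing the data. Scripts ran in Python 3.11.15 with scipy 1.17.1, pandas 2.3.3 and numpy 2.4.6, after being tested on simulated regions. Replicate numbers shared by control and FOXD2 libraries do not mark a stated pairing. Replicates are numbered by the labels, although the peak names inside some MLL4, H3K27ac and H3K4me3 lists carry a higher replicate number.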

Additional observations from a re-analysis of the deposited data

How the results depend on the processing

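Of 325 values recomputed over 32 results and 33 alternatives, 254 kept their direction or stayed within 1.5 times the reported count. The exact permutation tests used cannot pass 0.05 with these numbers of libraries, so their p-values say nothing of stability. With −log10 q of at least 5 in every list the rule found 1033 regions, 26.7% of them near a start and 246 genes at promoters, and H3K4me1 was in both control lists only at 1 region, longer in both FOXD2 lists at 10 and shorter at 53. Under the same threshold H3K27ac was in both control lists only at 1 region, longer in both FOXD2 lists at 193 and shorter at 17. With equal list lengths there were 928 regions, 26.1% near a start and 219 genes, H3K4me1 was in both control lists only at 0 regions, longer at 7 and shorter at 38, and H3K27ac was in both FOXD2 lists only at 12, longer at 148 and shorter at 16. In these 2 settings fewer regions are tested. With an overlap of 50% of the shorter interval, H3K4me1 was in FOXD2 lists only at 2 and in control lists only at 13, and H3K27ac at 58 and 5. The difference in H3K4me1 share turned to 0.0968, 0.162 and 0.0862 points with the q threshold, equal lengths and a merging gap of 500 bp; the cause was not tested. Asking for 3 of 4 MLL4 lists gave 4677 regions, a start within 5 kb gave 758 genes, and listed protein-coding starts alone put 20.4% of regions near a start.

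Leaving out 1 library at a time gave 1778 to 4245 regions, with the highest number without FOXD2 MLL4 replicate 2, of which 27.7% to 45.7% were near a start, and 476 to 1907 genes. The H3K27ac calls ran from 28 to 60 and 0 to 14 for presence in FOXD2 or control lists only, and from 291 to 623 and 37 to 157 for longer and shorter coverage. For H3K4me1 they ran from 1 to 11, 3 to 13, 18 to 153 and 78 to 279. The H3K4me1 group difference ran from -0.56 to 0.50 points in share and -3.96 to 0.52 in covered length, changing sign without control replicate 1 or FOXD2 replicate 2, and the H3K4me1 share against H3K4me3 regions without MLL4 from -0.21 to 4.68. The H3K27ac group difference ran from 2.52 to 3.57 points in share and 5.99 to 8.54 in covered length, and the tag differences from 1.92 to 11.4 and -18.0 to -10.2, the first without a common sign in the 4 lists when FOXD2 MLL4 replicate 2 was left out.

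With the replicate number as a block, the mean group differences are the same by construction, and the smallest exact p is 0.5. The block counts H3K4me1 as longer in FOXD2 at 50 regions and shorter at 144. Deviations of same-numbered libraries correlated at 0.34 for H3K4me1 and -0.11 for H3K27ac over the 1709 regions. With 2 pairs and no stated pairing, this cannot tell whether same-numbered libraries belong together. H3K4me1 covered length was 92.15% in control and 90.5% in FOXD2 libraries for replicate 1. For replicate 2 it was 87.9% and 86.1%, so the FOXD2 list was lower in both pairs. Crossing the H3K27ac numbers, a choice made after seeing the data, gave 338 longer and 49 shorter.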
